A study of Homo sapiens with 13 samples.

Results

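MEF2 homotypic arrays are artificial enhancers that hold 1 to 5 copies of the MEF2 motif and no other named motif, set in 1 of 3 flanking sequences called contexts. They were chosen by name: every construct whose motif string contains MEF2 alone, in each deposited barcode table. This gave 15 of 542 constructs in the episomal library with 5 bp between motifs, the same 15 designs among 442 constructs with 10 bp between motifs, and 13 of 530 constructs in the genome-integrated 5 bp library. Behind them stood 4298 listed barcodes at 5 bp and 5117 at 10 bp, of which 2724 and 3516 had the 5 plasmid reads asked of a barcode, and 262 barcodes in the integrated table. The choice made here used names and plasmid reads, and no mRNA value. The episomal tables themselves, however, list only barcodes with reads in every mRNA library.

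MEF2 proteins are MADS-box transcription factors that bind an A/T-rich DNA element as dimers. They are best known for muscle and neuronal gene programmes, and in B lymphocytes MEF2B and MEF2C act in germinal centre cells and in growth after antigen receptor signalling. A MEF2 protein on DNA can recruit either coactivators such as p300 or class IIa histone deacetylases. The labels name the motif only as MEF2, so no single family member is assigned to it here.

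STARR-seq places a candidate enhancer within the reporter transcript, so that the abundance of its own barcode in mRNA reads out its activity. All libraries were assayed in MEC1, an established wild-type line of chronic lymphocytic leukaemia, a B cell cancer. For each spacer length, 1 library of the input plasmid and 2 libraries of mRNA were sequenced. The mRNA came from a pair of transfections, each with 30 µg plasmid, harvested after 24 h. The integrated groups were 1 plasmid DNA sample, 3 mRNA samples and 3 genomic DNA samples of 5 bp constructs. Their MEC1 cells carried a CRE recombinase and a landing pad with GFP driven by the CMV promoter between loxP and lox2272 sites. They were kept in blasticidin before being transfected in 8 sets, sorted for loss of GFP after 10 to 12 days, and grown for 6 to 7 more days. Extractions of RNA and genomic DNA were made in triplicate. Nothing in the labels says that the 3 extractions were of different cultures. The integrated p-values thus reflect only how extractions vary, which may be technical.

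The reference for every array was the construct named rd of the same context and table, which carries none of the 8 motif names. That it holds no motif is assumed from its name, since the labels do not state it. MEF2 arrays took up 1.29% of the kept plasmid reads at 5 bp and 1.56% at 10 bp, but 0.607% and 0.642% of the 5 bp mRNA reads and 1.15% and 1.11% of the 10 bp mRNA reads. In reads, this was 38558 plasmid, 17156 and 15907 mRNA reads at 5 bp, and 53868, 36076 and 34733 at 10 bp, from libraries of 3850658 to 4563359 reads. In the integrated mRNA a single barcode of another construct took 12.2% to 17.5% of each library. The deposited episomal tables list only barcodes with at least 1 read in each library. Barcodes without mRNA are therefore missing from them, which overstates the activity of weak arrays.

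The letters of the motif and contexts are not printed, since the tables name them only. The identity that the tables do give is the 12 bp random barcode of each molecule, and 6 barcodes are shown because single barcodes carried a large share of the mRNA of some constructs compared further on. They are written 5′ to 3′ as listed, with no capitals because no part of a random barcode is singled out. The first 3 lead the integrated rd constructs of contexts 1, 2 and 3, the next pair lead the integrated 1-copy MEF2 arrays of contexts 2 and 3, and the last leads the 10 bp episomal array of 5 MEF2 copies in context 3.
rd context 1: acaccatgatac
rd context 2: atgattacgcaa
rd context 3: ctcatctagtcc
MEF2 1 copy context 2: cgatcactcttc
MEF2 1 copy context 3: cggacctaacaa
MEF2 5 copies context 3, 10 bp: ttcagttgatgg

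With 5 bp spacers, the mean MEF2 activity over contexts peaked at 2 copies and lay below the rd reference from 3 copies on. Activity is the log2 ratio of a construct's share of mRNA reads to its share of plasmid reads, and the relative level is that of the array minus that of rd. Averaged over the 3 contexts, the relative level was 0.23 ± 0.022 with 1 copy, 0.88 ± 0.11 with 2, -0.27 ± 0.052 with 3, -0.81 ± 0.11 with 4 and -1.46 ± 0.20 with 5 (SD, n = 2 mRNA libraries). Single contexts departed from this mean. In context 1 the level was 0.49 with 1 copy and 0.32 with 2, and only context 1 had a 3-copy array called lower than rd. Among the 8 motifs, MEF2 ranked 6 with 1 copy and 2 with 2 copies, where NFKB lay higher at 2.47 in both libraries and IRF, at 0.78 ± 0.068, lay within the spread of MEF2. With 5 copies it was the lowest of the 7 motifs that have such arrays, although RUNX3 at -1.36 ± 0.047 differed from it by less than the spread between the MEF2 replicates. The order of the copy numbers does not turn on the reference, since all 3 rd constructs enter every mean, but the sign does. With no reference, 2 arrays were called above 0 and 13 below with TMM scaling, and 0 and 15 with library totals, beside 5 and 7 relative to rd. These scalings shift all constructs, whose median moved from 0.62 to -0.14 with TMM and to -0.80 with library totals.

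The array of 2 copies in context 3 was the most active MEF2 construct at 5 bp. It had 3648 plasmid reads and 2936 and 2861 mRNA reads, against 7611 plasmid reads and 2392 and 2202 mRNA reads for rd of that context. Both mRNA libraries placed it far above rd, at 1.36 and 1.44. The fitted difference was 1.40 (SE 0.10), a 2.63-fold excess, with an edgeR adjusted p of 7.0e-39. The spread behind this p is estimated from both spacers together. Without either 10 bp mRNA library, which is no part of the difference, the value stayed at 1.40 but the adjusted p was far larger. The size of such small p-values thus depends on libraries outside the comparison. In context 2 the array of 2 copies stood at 0.77 and 1.05 in the mRNA libraries, with a fitted 0.91 (SE 0.10; adjusted p = 2.3e-17). In context 1 it stood at 0.26 and 0.38, with a fitted 0.32 (SE 0.13; adjusted p = 0.0166). That last call depended on having both mRNA libraries, because without replicate 1 the value was 0.38 (adjusted p = 0.0577) and without replicate 2 it was 0.26 (adjusted p = 0.183), and DESeq2 gave 0.32 (adjusted p = 0.0582).

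Arrays of 1 copy were close to the reference. In context 1 the mRNA libraries gave 0.50 and 0.48, and in context 2 they gave 0.25 and 0.31. Both arrays rose, at 0.49 (SE 0.10; edgeR adjusted p = 2.1e-06) and 0.28 (SE 0.10; adjusted p = 0.0071). The context 2 call was lost without 5 bp mRNA replicate 2 (0.25, adjusted p = 0.0765). In context 3 both libraries lay just under rd, at -0.11 and -0.04, and the fitted -0.07 (SE 0.10) did not pass (adjusted p = 0.472). With the 3 rd constructs summed as one reference it stood at -0.33 (adjusted p = 2.9e-04).

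Arrays of 4 and 5 copies fell in every context. With 4 copies the fitted differences from rd were -1.03 (SE 0.21), -0.84 (SE 0.12) and -0.55 (SE 0.13) in contexts 1, 2 and 3. With 5 copies they were -1.18 (SE 0.29), -1.67 (SE 0.27) and -1.46 (SE 0.24). The edgeR adjusted p-values of these 6 arrays ranged from 3.9e-12 to 6.0e-05, and every mRNA library lay below rd for each. Reads were summed over barcodes before the fit, so these errors leave out the spread between the barcodes of an array. The 5-copy arrays rest on 7, 5 and 9 barcodes with 98, 121 and 193 plasmid reads, and on 12 to 24 mRNA reads per library. Of the 3-copy arrays, only that of context 1 fell, at -0.55 (SE 0.10; adjusted p = 2.6e-07), while contexts 2 and 3 stood at -0.11 (SE 0.10; adjusted p = 0.309) and -0.15 (SE 0.11; adjusted p = 0.172). With the 3 rd constructs summed, context 3 stood at -0.41 (adjusted p = 6.2e-05).

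In all, 5 of the 15 arrays at 5 bp were higher than rd and 7 lower. Of all 439 constructs with a motif tested in the same fit, 66.1% were higher and 25.1% lower. The median of the 15 MEF2 differences was -0.15, beside 0.62 over all 439. Arrays of 1 context share 1 rd construct, so their differences from it are not independent.

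Set against the 1-copy array of the same context, added MEF2 copies raised 2 of 12 arrays and lowered 8 at 5 bp. Over the homotypic arrays of all motifs, 31.9% of 91 were higher than their 1-copy array and 40.7% lower. The risers were the 2-copy arrays of context 3, at 1.47 (SE 0.10; edgeR adjusted p = 5.6e-34), and of context 2, at 0.63 (SE 0.091; adjusted p = 1.8e-10). The 2-copy array of context 1 stood at -0.17 (SE 0.13) and did not pass (adjusted p = 0.261). All 6 arrays of 4 and 5 copies were lower than 1 copy, from -0.48 (SE 0.12) for 4 copies in context 3 to -1.94 (SE 0.34) for 5 copies in context 2. A straight line through copies, with context as a term, had a slope of -0.51 ± 0.045 log2 units per copy (SD, n = 2). It was the lowest of the 8 motifs with all arrays, but PU1 was lower without arrays of 5 copies (-0.48 against -0.43) and with at least 20 barcodes per construct (-0.48 against -0.39), and PU1 and RUNX3 stood at -0.49 against -0.48 over barcodes of 20 or more plasmid reads. The MEF2 slope was -0.76 when arrays of 1 copy were left out.

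With 10 bp spacers, the mean over contexts was nearly flat from 1 to 2 copies and then fell. It was 0.15 ± 0.031 with 1 copy, 0.19 ± 0.062 with 2, -0.25 ± 0.034 with 3, -1.22 ± 0.097 with 4 and -1.39 ± 0.12 with 5 (SD, n = 2). The values for 1 and 2 copies differ by less than the replicate SD of the latter. MEF2 ranked 4 of 8 motifs with 1, 2 and 3 copies and 5 with 4 copies, and the slope was -0.45 ± 0.021 per copy (SD, n = 2).

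The contexts differed widely for the 1-copy array at 10 bp. In context 3 it had 11650 plasmid reads and 12892 and 12499 mRNA reads, and both libraries placed it above rd, at 1.10 and 1.18. The fitted difference was 1.14 (SE 0.097), or 2.20-fold (edgeR adjusted p = 3.1e-29). In context 2 the libraries gave -0.67 and -0.62, and the array fell, at -0.64 (SE 0.10; adjusted p = 2.9e-10). In context 1 they gave -0.06 and -0.05, and the fitted -0.05 (SE 0.099) did not pass (adjusted p = 0.591). The 3 context values do not overlap between libraries, and the highest and lowest lay 1.78 apart. Each is relative to its own rd construct, and without rd the activities of contexts 3 and 2 lay 1.22 apart. The 1-copy arrays of the other motifs varied by context too. Their spread was widest for NFKB, from -0.47 to 2.04, and narrowest for CTCF, from -2.44 to -1.86.

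Arrays of 2 copies at 10 bp stayed near rd. They stood at 0.12 and 0.20 in context 1, 0.03 and 0.15 in context 2, and 0.31 and 0.36 in context 3. Only the last rose, at 0.33 (SE 0.099; edgeR adjusted p = 0.00094). The context 1 array was at 0.16 (SE 0.097; adjusted p = 0.108). It passed without 10 bp mRNA replicate 1 (0.20, adjusted p = 0.0472), and was called lower with library totals and no reference (-0.52, adjusted p = 1.9e-07).

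Arrays of 3 copies at 10 bp split by context, with 0.37 (SE 0.097; edgeR adjusted p = 2.0e-04) in context 3, -0.29 (SE 0.096; adjusted p = 0.00333) in context 1 and -0.83 (SE 0.10; adjusted p = 3.6e-15) in context 2. With the 3 rd constructs summed as one reference, the context 3 arrays of 2 and 3 copies stood at 0.05 (adjusted p = 0.567) and 0.09 (adjusted p = 0.339), and the 2-copy array of context 2 at 0.37 (adjusted p = 6.8e-05). Restricted to barcodes of 20 or more plasmid reads, the 3-copy array of context 1 stood at -0.20 (adjusted p = 0.0997). All 6 arrays of 4 and 5 copies fell. They ranged from -0.82 (SE 0.13) for 5 copies in context 3 to -2.09 (SE 0.17), a 4.25-fold deficit, for 5 copies in context 2, with adjusted p from 1.2e-32 to 1.8e-10. The array at -2.09 rests on 18 barcodes with 329 plasmid reads and 56 and 57 mRNA reads. The median of its barcodes' own ratios lay at -1.67 relative to rd.

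The 5-copy array of context 3 showed the smallest fall of these 6 and leaned on the barcode ttcagttgatgg. It had 60 of the 763 plasmid reads and gave 86 of 232 and 59 of 198 mRNA reads, 33.7% of the total. The median of the 37 barcodes' own ratios lay at -1.29 relative to rd, against -0.82 for the sum of reads.

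In all, 3 of the 15 arrays at 10 bp were higher than rd and 9 lower, where 44.9% of all 439 constructs were higher and 44.9% lower. Their median was -0.64, beside -0.05 over all constructs. With library totals and no reference, 1 was higher and 14 lower, while the median over all constructs moved to -0.67. Against the 1-copy array, 2 of 12 were higher and 10 lower, where 24.2% of the 91 arrays of all motifs were higher and 64.8% lower. The risers were 2 copies in context 2, at 0.73 (SE 0.087; edgeR adjusted p = 2.7e-14), and in context 1, at 0.21 (SE 0.095; adjusted p = 0.0291). In context 3, where the 1-copy array was itself high, 2 copies lay at -0.80 (SE 0.094; adjusted p = 9.5e-15). DESeq2 did not call the 2-copy array of context 1 (adjusted p = 0.212) nor the 3-copy arrays of contexts 1 and 2 (adjusted p = 0.147 and 0.252). Without 10 bp mRNA replicate 2 the 2-copy array of context 1 (0.17, adjusted p = 0.12) and the 3-copy arrays of contexts 1 (-0.22, adjusted p = 0.0552) and 2 (-0.22, adjusted p = 0.0678) did not pass. The context 2 array of 3 copies, at -0.19 (adjusted p = 0.0482), was also lost without 10 bp mRNA replicate 1 (-0.15, adjusted p = 0.197), and without 5 bp mRNA replicate 1 or 2, which left its value unchanged (adjusted p = 0.0659 and 0.0673).

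The relative level differed between the spacers for 10 of the 15 MEF2 arrays, 3 higher and 7 lower with 10 bp. Over all 439 constructs 16.2% were higher and 68.3% lower with 10 bp, and the median difference was -0.76, beside -0.42 for MEF2. The largest fall was that of 2 copies in context 3, from 1.40 to 0.33, a difference of -1.06 (SE 0.14; edgeR adjusted p = 3.5e-13). The largest rise was that of 1 copy in the same context, from -0.07 to 1.14, a difference of 1.21 (SE 0.14; adjusted p = 7.8e-17). In context 3 the most active MEF2 array was that of 2 copies at 5 bp and that of 1 copy at 10 bp.

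A 1-copy array holds no spacer between motifs, yet its relative level differed between the tables in all 3 contexts. MEF2 was lower at 10 bp by -0.54 (SE 0.14) in context 1 and -0.92 (SE 0.14) in context 2. In context 2 the 1-copy arrays of all 8 motifs were lower, from -1.58 to -0.87. In context 3 they ranged from -0.50 for CTCF to 1.89 for IRF, with MEF2 second. The rd constructs moved too, from activities of -1.25, -1.12 and -1.55 in contexts 1, 2 and 3 at 5 bp to -0.68, -0.31 and -0.87 at 10 bp. Library and spacer length cannot be told apart in this design.

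The direction of the spacer difference follows the reference. Without rd, 12 of 15 MEF2 arrays took a larger ratio of mRNA share to plasmid share at 10 bp, with a median difference of 0.28. With TMM scaling and no reference, 5 arrays were higher and 1 lower by edgeR, in place of 3 and 7. The median spacer difference of all constructs moved from -0.76 to -0.05 with that scaling. Without 5 bp mRNA replicate 2, the differences of the 4-copy arrays of contexts 2 and 3 and of the 5-copy array of context 3 did not pass (-0.42, -0.39 and 0.52, adjusted p = 0.0556, 0.164 and 0.25). Without 5 bp mRNA replicate 1, the last 2 of these did not pass either (-0.48 and 0.81, adjusted p = 0.0867 and 0.0898), nor did they by DESeq2 (adjusted p = 0.0787 and 0.0645). Restricted to barcodes of 20 or more plasmid reads, the 4-copy arrays of contexts 2 and 3 stood at -0.23 (adjusted p = 0.295) and -0.46 (adjusted p = 0.0842).

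The motifs whose 5 bp slopes lay nearest that of MEF2 were RUNX3, at -0.40 ± 0.017 per copy, and PU1, at -0.39 ± 0.0072 (SD, n = 2). RUNX3 is a Runt-domain factor and PU1 an ETS factor, both known from blood cell development. Set against the RUNX3 array of the same copies and context at 5 bp, 3 of 15 MEF2 arrays were higher, 1 lower and 11 did not pass. The higher arrays were those of 2 copies in contexts 3 and 2, at 1.78 (SE 0.11; edgeR adjusted p = 6.0e-12) and 0.93 (SE 0.11; adjusted p = 1.3e-07), and of 4 copies in context 2, at 0.41 (SE 0.16; adjusted p = 0.0222). Against PU1, 4 of 14 were higher and 1 lower, and the 2-copy arrays led again at 1.47 (SE 0.16) in context 2, 1.32 (SE 0.14) in context 3 and 0.59 (SE 0.18) in context 1. Of all 386 matched pairs of the 8 motifs, 82.9% differed at 5 bp, and nothing is read from the lower share here, since RUNX3 and PU1 were picked for like 5 bp slopes. MEF2 against all 7 other motifs gave 24 higher and 49 lower of 100. Without either 10 bp mRNA library, which enters the shared estimate of spread, 4 of the 29 were lower in place of 2.

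At 10 bp, 2 MEF2 arrays were higher than RUNX3, 9 lower and 4 did not pass, while against PU1 8 of 14 were higher and 1 lower. Across all matched pairs 88.9% differed. The widest gaps to PU1 were those of 2 copies in context 2 (1.71, SE 0.15) and of 3 copies in contexts 1 and 2 (1.66, SE 0.15, and 1.54, SE 0.15). NFKB, the highest motif at 5 bp, lay above 14 of 15 matched MEF2 arrays there. IRF, the highest at 10 bp, lay above all 15 there. CTCF, the lowest in both libraries, lay below 11 of 11 MEF2 arrays at 5 bp and 10 of 11 at 10 bp. IRF at 5 bp lay above 13 of 15 and below 1, as did NFKB at 10 bp. These 3 motifs were named for the highest or lowest levels in these same data, so nothing is read from their counts.

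MEF2 arrays of 4 and 5 copies were carried by far fewer barcodes than those of 1 to 3. At 5 bp the 3 contexts together held 1309 barcodes with 1 copy, 572 with 2, 701 with 3, 121 with 4 and 21 with 5, and at 10 bp 1399, 815, 1070, 160 and 72. PU1 thinned alike, to 19 and 58 barcodes with 5 copies, whereas MYC kept 1565 and 1664. Plasmid reads per barcode stayed between 10.1 and 24.2 for all MEF2 arrays. The largest difference between mRNA replicates was 0.36 for arrays of 1 to 4 copies and 0.58 for those of 5.

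For arrays of 1 to 3 copies, the median of the barcodes' own ratios lay within 0.11 of the value from summed reads. Of the 291 barcodes of 2 copies in context 3 at 5 bp, 94.5% lay above the median barcode of rd, and of the 685 barcodes of 1 copy in context 3 at 10 bp, 86.9% did. With 4 copies at 5 bp this share was 0%, 19.7% and 32.6% of 14, 61 and 46 barcodes. The share of barcodes with 1 read in both mRNA libraries, the lowest value the tables list, was at most 9.74% for arrays of 1 to 3 copies and at most 22.2% for 4 and 5. The G and C bases of a barcode had little relation to its ratio within an array (Spearman's rho -0.036 over 2724 barcodes at 5 bp and -0.021 over 3516 at 10 bp, as a description, since barcodes share constructs and libraries).

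In the genome, few MEF2 barcodes gave mRNA. Values there are RPM, reads scaled to the size of the library by the authors. Of the 262 MEF2 barcodes, 10.3%, 13.0% and 7.63% had mRNA in replicates 1, 2 and 3, a mean of 10.3% ± 2.67 (SD, n = 3). For rd the mean was 9.49% ± 3.08, which differed from MEF2 by less than the spread between replicates. All barcodes with a motif stood at 19.7% ± 2.66, RUNX3 at 5.65% ± 1.20, PU1 at 26.8% ± 3.56, NFKB at 43.7% ± 7.07 and IRF at 58.9% ± 6.51. CTCF, at 9.34% ± 3.35, also differed from MEF2 by less than the spread between replicates. Over the 3 replicates together 62 MEF2 barcodes had mRNA (23.7%, exact Clopper-Pearson 95% interval 18.7% to 29.3%), and 24 of 123 rd barcodes did (19.5%, interval 12.9% to 27.6%). These intervals cover counting error only.

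Detection differed little with copies and more with context. It was 9.80% ± 1.28 of 119 barcodes with 1 copy, 11.4% ± 3.94 of 44 with 2, 10.9% ± 4.84 of 86 with 3 and 9.09% of 11 with 4, values that differ by less than the SD with 2 copies. With 5 copies it was 0 of 2, for which the exact interval reaches 84.2%. By context it was 4.10% ± 0.89 in context 1, 15.2% ± 4.56 in context 2 and 10.6% ± 4.59 in context 3. Every replicate of context 1 lay below every replicate of the other contexts, a difference that was not tested. The rd constructs stood at 10.3% ± 4.44, 14.0% ± 4.02 and 5.07% ± 1.26. Of the 62 MEF2 barcodes, 47 had mRNA in 1 replicate, 11 in 2 and 4 in all 3.

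Summed RPM per construct placed 4 of 10 MEF2 arrays with at least 3 barcodes below rd and 0 above, by limma on log2(RPM + 0.5), a scale that understates the change of low constructs. At an unadjusted p under 0.05 the counts were 6 and 0. Of all 510 constructs tested, 30.4% were higher and 29.4% lower. The median MEF2 difference was -3.04, beside -0.23 over all constructs.

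The calls in context 2 show what the reference brings. The 1-copy array had 937, 1035 and 1191 RPM in genomic DNA and 247, 283 and 280 RPM in mRNA. The rd construct of that context had 985, 976 and 868 RPM in genomic DNA but 1427, 2430 and 1148 RPM in mRNA. All replicates of the array lay below those of rd, and the array fell, at -2.71 (SE 0.35; limma adjusted p = 0.00129). Arrays of 2 and 3 copies gave -3.16 (SE 0.43; adjusted p = 0.00159) and -2.91 (SE 0.37; adjusted p = 0.00128).

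A single barcode, atgattacgcaa, made up 84.0% of that rd mRNA. It gave 1328, 2020 and 853 RPM in mRNA against 25.5, 45.9 and 69.5 RPM in genomic DNA. In the 5 bp episomal table the same barcode had 36 plasmid reads and 23 and 12 mRNA reads. The barcode acaccatgatac likewise made up 67.3% of the mRNA of rd in context 1, where the 3-copy array was lower by -3.69 (SE 0.42; limma adjusted p = 0.00084). Leaving out the barcode with the most mRNA of every construct took the context 2 arrays to -0.80 (adjusted p = 0.511), -3.00 (adjusted p = 0.324) and -0.68 (adjusted p = 0.615) for 1, 2 and 3 copies, and the 3-copy array of context 1 to -5.86 (adjusted p = 0.0539). The 2-copy array of context 1 was then called, at -5.22 (adjusted p = 0.0011), but its leading barcode held 100% of its mRNA, so that 2 barcodes at 0 in every replicate remained and the pseudocount sets the value.

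In context 3, where the rd barcode ctcatctagtcc made up 46.0% of a low mRNA sum of 134, 112 and 96.7 RPM, MEF2 arrays lay slightly above the reference and did not pass. They stood at 0.62 (SE 0.29; limma adjusted p = 0.11), 0.36 (SE 0.46; adjusted p = 0.527) and 0.26 (SE 0.62; adjusted p = 0.725) for 1, 2 and 3 copies. The sign there follows the reference, since with the 3 rd constructs summed they stood at -2.50 (adjusted p = 0.0056), -2.76 (adjusted p = 0.016) and -2.86 (adjusted p = 0.00706). That sum, however, holds the context 2 barcode atgattacgcaa, with 1328, 2020 and 853 RPM in mRNA. The summed reference also moved the median of all constructs from -0.23 to -0.80. The 1-copy array had 225, 218 and 264 RPM in mRNA from 2127, 1807 and 2348 RPM in genomic DNA. Its leading barcode cggacctaacaa had 114, 0 and 54.1 RPM in mRNA. The rd constructs themselves ran from -3.77 ± 0.16 to 0.75 ± 0.49 (SD, n = 3) in log2 of mRNA over genomic DNA.

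The other integrated arrays were low with wide errors. In context 1 the 1-copy array had 51.0, 83.3 and 0 RPM in mRNA and stood at -4.82 (SE 1.97; limma adjusted p = 0.0791), and the 2-copy array had 38.1, 0 and 0 RPM and stood at -5.02 (SE 1.80; adjusted p = 0.055). The 4-copy array of context 2 had 96.3, 33.2 and 0 RPM from 7 barcodes and stood at -4.86 (SE 1.82; adjusted p = 0.0628). Each holds replicates at 0 RPM, so the pseudocount sets these values. With a pseudocount of 2 in place of 0.5 the 3 arrays stood at -4.13 (adjusted p = 0.0404), -3.69 (adjusted p = 0.0401) and -4.17 (adjusted p = 0.0308), and passed. They also depended on which mRNA sample was in the fit. Without mRNA replicate 3, the 1-copy array stood at -2.49 (adjusted p = 0.00106) and the 4-copy array at -2.81 (adjusted p = 0.0244). Without mRNA replicate 1, the 2-copy array stood at -7.13 (adjusted p = 2.5e-04) and the 4-copy array at -6.45 (adjusted p = 0.017). Without mRNA replicate 2, the 1-copy array stood at -6.13 (adjusted p = 0.0479).

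The 3 arrays under 3 barcodes were not tested. The 4-copy array of context 1 and the 5-copy array of context 3 are listed at 0 mRNA in all replicates with 2 barcodes each. The 4-copy array of context 3 had 0, 0 and 55.7 RPM from 2 barcodes.

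Integrated MEF2 arrays did not differ detectably by copies. Against the 1-copy array of the same context, limma called 0 of 7, and 0 at an unadjusted p under 0.05, where 50.6% of 81 arrays of all motifs differed. Their differences ran from -2.15 (SE 2.01) to 1.13 (SE 2.25), so large changes in either direction are within the error. Without mRNA replicate 2, the 2-copy array of context 1 passed at 2.19 (adjusted p = 0.00798), in place of -0.20 (SE 2.05). The slope was -0.26 ± 0.39 per copy (SD, n = 3), and 0.09 over the 7 arrays with at least 20 barcodes.

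Set against matched arrays, integrated MEF2 lay below PU1 in 6 of 10 cases and above it in 0 by limma (7 and 0 at an unadjusted p under 0.05), where 56.8% of 333 matched pairs of all motifs differed. The 1-copy and 2-copy arrays of contexts 2 and 3 were lower than PU1 by between -2.32 (SE 0.38) and -1.08 (SE 0.27). Against RUNX3, 2 of 10 were higher, 1 lower and 7 did not pass. The higher ones were 1 copy in context 2, at 1.01 (SE 0.34; adjusted p = 0.0497), and 4 copies in context 2, at 6.48 (SE 2.08; adjusted p = 0.0447). Neither passed with a replicate block, without mRNA replicate 2 or without any one genomic DNA replicate, and without mRNA replicate 1 or 3 the count of higher calls was 1. IRF lay above 9 of 10 MEF2 arrays, NFKB above 7 of 10 and CTCF above 1 of 10. Against CTCF the other 9 did not pass.

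Many barcode sequences were listed in both the episomal and the integrated assay. Of the 262 integrated MEF2 barcodes, 165 were also listed in the 5 bp episomal table, all 165 under the same construct name. Of these, 40 had integrated mRNA and 125 had none. Their episomal log2 ratios of mRNA to plasmid reads had a median of -0.33 (quartiles -1.22 and 1.00) for the former and -0.42 (quartiles -1.08 and 0.22) for the latter, a difference that was not tested. Over all named barcodes the medians were 0.82 and 0, and over those of rd -0.65 and -0.33. The barcode with the most integrated MEF2 mRNA, cgatcactcttc, had 19.2, 201 and 110 RPM in mRNA from 61.7, 40.3 and 53.7 RPM in genomic DNA. In the episomal table it had 6 plasmid reads and 5 and 1 mRNA reads. A further 217 MEF2 barcode sequences occurred in both episomal tables, 0 of them under the same construct name.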

How the data were processed

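The members, lists and alternatives were chosen with earlier results of these data known. For each episomal barcode the authors deposited its raw read count in every library, and for the integrated libraries RPM values of mRNA and genomic DNA, per the file headers, with whole-number plasmid counts. For the aligner, the counter and the array sequences: not given in the sources used here. Integrated barcodes all had 2 RPM or more in each genomic DNA replicate, and sum to between 487877 and 578948 RPM per library, so the table lists part of each library. Between 16.6% and 18.5% of episomal reads had no construct name and were left out, as were 9 columns of per-sample values that matched no sample. Barcodes with at least 5 plasmid reads were summed per construct, with at least 5 barcodes per construct (3 if integrated).

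Each array was set beside its reference in the same 6 episomal libraries and tested with edgeR 4.0.16 (quasi-likelihood, library as a term, R 4.3.3). Both spacers were fitted together and share an estimate of spread, which the lone plasmid library of each also takes. Episomal SEs and p-values thus reflect how libraries vary, and not how the barcodes of a construct vary. Integrated sums were tested with limma 3.58.1 on log2(RPM + 0.5). Benjamini-Hochberg adjusted p-values under 0.05, over all constructs, arrays or pairs tested, passed. DESeq2 1.42.0, other minima, scalings, references and left-out libraries were the alternatives. Every MEF2 array is described by copies and context, beside the motifs with the nearest 5 bp slopes and those that were highest or lowest. Replicates of an episomal library differed by more than sampling noise (chi-square per degree of freedom 5.37 and 6.76). Reads carry no molecular identifiers, so they overstate independent molecules. The fits were tested on simulated data.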

Additional observations from a re-analysis of the deposited data

Results flagged for a closer look

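The relative level of 10 of the 15 MEF2 arrays differed between the 10 bp and the 5 bp library by edgeR's test of the difference itself (adjusted p under 0.05), given here as 10 bp minus 5 bp on the log2 scale. For 1 copy the differences were -0.54 (adjusted p = 0.000196), -0.92 (adjusted p = 3.2e-10) and 1.21 (adjusted p = 7.8e-17) in contexts 1, 2 and 3. For 2 copies they were -0.82 (adjusted p = 3.3e-08) and -1.06 (adjusted p = 3.5e-13) in contexts 2 and 3. For 3 copies they were -0.72 (adjusted p = 1.6e-06) and 0.52 (adjusted p = 0.000497) in contexts 2 and 3. For 4 copies they were -0.52 (adjusted p = 0.00196) and -0.44 (adjusted p = 0.0222) in contexts 2 and 3, and for 5 copies 0.65 (adjusted p = 0.0238) in context 3. Over all 439 constructs 16.2% were higher and 68.3% lower with 10 bp, so a difference between the libraries is not particular to MEF2. The 4 differences in context 2 were all negative, and those in context 3 took both signs. In context 2 the 1-copy arrays of all 8 motifs were lower at 10 bp, from -1.58 to -0.87. The calls for 4 and 5 copies depended on which libraries were in the fit, as given above.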

How the results depend on the processing

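Scaling mattered most. Without a reference construct, the 5 bp arrays above and below 0 numbered 2 and 13 with TMM, 0 and 15 with library totals and 2 and 12 with DESeq2 size factors, in place of 5 and 7, and these scalings moved the median of all constructs by -0.76, -1.42 and -0.65. Library totals gave 1 and 14 at 10 bp, in place of 3 and 9, and moved the median of all constructs there by -0.62. Spacer differences became 5 higher and 1 lower with TMM or DESeq2 size factors and 7 and 1 with library totals, in place of 3 and 7. The median spacer difference of all constructs moved by 0.71, 0.61 and 0.82 with TMM, DESeq2 size factors and library totals. Arrays called in the opposite direction at 5 bp were, with TMM, 1 copy in contexts 1 and 2 (-0.22, -0.29) and 2 copies in context 1 (-0.39); with library totals, 1 copy in contexts 1 and 2 (-0.89, -0.96) and 2 copies in contexts 1, 2 and 3 (-1.05, -0.33, -0.27); and with DESeq2 size factors, 1 copy in context 2 (-0.19) and 2 copies in context 1 (-0.28). With library totals, 2 and 3 copies in context 3 were called in the opposite direction at 10 bp (-0.54, -0.50), as were the spacer differences of 4 copies in contexts 2 and 3 (0.41, 0.37). Further values changed sign without a call on both sides, among them 1 copy in context 1 at 5 bp with DESeq2 size factors (-0.11), and 2 copies in contexts 1 and 2 at 10 bp (-0.52, -0.22) with library totals, which also turned the spacer differences of 2 and 3 copies in context 2 (0.11, 0.21). A minimum of 20 plasmid reads per barcode left 10 arrays in the fit of both spacers, and 20 barcodes per construct 11, with 3 and 3 lower at 5 bp and 4 and 5 at 10 bp. Against 1 copy these left 4 and 4 lower at 5 bp, and 5 and 5 at 10 bp, where 20 plasmid reads or DESeq2 gave 1 higher. Slopes became -0.39 with 20 barcodes, -0.43 without 5 copies and -0.76 without 1 copy at 5 bp, and -0.49 with 20 plasmid reads and -0.57 without 1 copy at 10 bp.

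Integrated arrays below rd numbered 7 with the 3 rd constructs summed, 7 with a pseudocount of 2 and 1 without leading barcodes, in place of 4. The summed rd holds the leading barcode atgattacgcaa of context 2. With no reference, 9 arrays had less mRNA than genomic DNA in RPM, which is not a comparison with rd. The median of all constructs moved from -0.23 to -1.45 in that setting, and to -0.80 with the summed rd. With 1 barcode per construct, 1 array was lower than 1 copy. Against RUNX3 and PU1 together, the 2 higher calls became 1 with 20 plasmid reads, 1 with 20 barcodes, 0 with the replicate block and 0 without leading barcodes, which also left 4 of 7 lower. The replicate block gave 4 arrays below rd, 0 that differed from 1 copy and 5 below RUNX3 or PU1. The labels do not say that equal numbers share an extraction, so the numbers were not taken as pairs. Same-numbered mRNA and genomic DNA samples did not deviate together (r = -0.018, 0.046 and -0.027 over 513 constructs). That cannot show how the extractions were paired, since most barcodes had no mRNA. No paired analysis was possible for the episomal libraries because each spacer has 1 plasmid library. The share of MEF2 barcodes with mRNA was 9.29% at 2 RPM or more and 11.2% with 20 plasmid reads, in place of 10.3%.

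Leaving out 1 library at a time, with a lone mRNA library assumed to vary like the others, gave 3 to 5 higher and 7 lower at 5 bp, 3 to 4 and 9 at 10 bp, 2 to 3 and 5 to 7 between spacers, and 0 and 4 to 6 after integration. Against 1 copy it gave 2 and 8 at 5 bp, 1 to 2 and 8 to 9 at 10 bp, and 0 to 1 and 0 after integration. Against RUNX3 and PU1 together it gave 5 to 7 and 2 to 4 at 5 bp, 9 to 10 and 10 at 10 bp, and 0 to 1 and 5 to 9 after integration. By the barcodes' median the mean 5 bp level was -0.20, in place of -0.29. Of 920 values of single arrays under alternatives, 808 kept their call, 53 lost the call, 45 gained one and 14 were called in the other direction. The causes of these changes were not tested. The 5-copy arrays at 5 bp rest on 5 to 9 barcodes.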
